A study of Mus musculus with 8 samples.

Results

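Hmgcs1, Idi1, Fdps, Fdft1, Sqle, Lss, Cyp51 and Dhcr7 encode 8 enzymes of the cholesterol synthesis pathway, and their transcripts were measured in triceps muscle of Nf1Prx1 and wild-type control mice. The 8 genes were chosen by name as pathway members and are 8 of the 19938 genes with a value on the arrays. Each gene was read from the transcript cluster (the set of array probes that covers 1 gene) with the highest mean, and all 8 had a cluster, so none was lost to a filter. Idi1 and Fdft1 had 2 clusters each, and the other 6 had 1.

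Total RNA of 1 triceps per mouse was hybridised to 1 Affymetrix Mouse Gene 1.0 ST array, with 4 Nf1Prx1 and 4 control animals. The Nf1Prx1 mice carry a conditional knockout of Nf1, the gene for the RAS inhibitor neurofibromin, by a Cre recombinase that the Prx1 limb enhancer drives in mesenchyme of the developing limb. The controls are labelled wild type. All 8 mice were 3 months old and ate standard chow, and their sex is not in the labels. Whole muscle also holds cells that this Cre does not reach, and in whole muscle fewer cells of a type and less RNA per cell cannot be told apart. Values are log2 levels made by RMA, a background correction, quantile normalization and probe summary, and levels of different genes are not compared because their probes differ.

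Animal cells build cholesterol from acetyl-CoA through mevalonate, isoprenoid diphosphates, squalene and lanosterol, and most of these enzymes are transcribed under SREBP2, a membrane-bound factor that is cleaved and enters the nucleus when sterols are low. SREBP binds a sterol element, commonly beside an NF-Y site. In muscle the same pathway also supplies isoprenoids for prenylated proteins, dolichol and ubiquinone. The related factor SREBP1c drives fatty acid synthesis genes and is most active in fat and liver.

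Promoters of 5 of the 8 genes were found in the RefSeq table (GRCm38.p6, 250 bases before to 50 bases after the start), and 3 genes, Sqle, Fdps and Fdft1, were not in it. The 4 shown belong to genes that were highest together in the same pair of arrays, described below. Capitals mark the sterol element TCACNCCAC and the NF-Y box CCAAT, in either orientation (ATTGG is CCAAT read on the other strand), and the motifs do not overlap in these sequences.
Hmgcs1 promoter, chr13:119690101-119690400, plus strand: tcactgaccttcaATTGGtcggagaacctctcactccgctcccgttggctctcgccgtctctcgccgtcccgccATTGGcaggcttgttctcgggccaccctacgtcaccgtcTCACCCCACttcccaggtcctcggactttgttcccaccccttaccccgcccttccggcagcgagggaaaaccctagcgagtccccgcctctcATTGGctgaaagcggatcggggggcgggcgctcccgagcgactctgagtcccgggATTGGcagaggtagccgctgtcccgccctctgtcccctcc
Idi1 promoter, chr13:8885356-8885655, plus strand: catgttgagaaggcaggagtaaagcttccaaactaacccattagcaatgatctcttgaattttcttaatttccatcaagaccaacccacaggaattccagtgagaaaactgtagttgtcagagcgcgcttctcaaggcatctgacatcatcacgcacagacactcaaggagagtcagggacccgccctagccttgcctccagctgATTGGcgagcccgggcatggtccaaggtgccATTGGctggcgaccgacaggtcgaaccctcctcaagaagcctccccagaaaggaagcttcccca
Lss promoter, chr10:76531355-76531654, plus strand: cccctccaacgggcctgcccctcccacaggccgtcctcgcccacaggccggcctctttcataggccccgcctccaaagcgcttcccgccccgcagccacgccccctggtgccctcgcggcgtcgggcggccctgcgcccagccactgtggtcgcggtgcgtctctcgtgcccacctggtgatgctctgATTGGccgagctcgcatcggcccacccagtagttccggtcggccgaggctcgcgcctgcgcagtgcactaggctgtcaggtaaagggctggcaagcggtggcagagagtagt
Cyp51 promoter, chr5:4104648-4104947, minus strand: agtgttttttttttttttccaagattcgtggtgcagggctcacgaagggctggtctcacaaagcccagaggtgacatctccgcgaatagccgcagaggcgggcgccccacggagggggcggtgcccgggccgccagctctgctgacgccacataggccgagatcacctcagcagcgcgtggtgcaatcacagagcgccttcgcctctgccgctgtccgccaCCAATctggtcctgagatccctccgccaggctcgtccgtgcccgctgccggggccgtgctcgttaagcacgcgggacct
A match to the exact letters TCACNCCAC was in the Hmgcs1 promoter alone of these 5 genes, 137 bases upstream of the start. It lay between NF-Y boxes that begin 176 and 45 bases upstream. Such a match was in 408 of all 32851 promoters in the table (1.24%). Other forms of the sterol element were not searched for, so a promoter without a match may still hold one. The 5 genes have 7 promoters in the table, 3 of them of Dhcr7. An NF-Y box was in 5 of these 7, with at least 1 for each gene, against 37.4% of all promoters, and the Idi1 promoter held 2, which begin 45 and 14 bases upstream. The Lss and Cyp51 promoters held 1 NF-Y box each, 62 and 29 bases upstream. A GC box (GGGCGG, either strand) was in 6 of the 7, against 35.7% of all promoters, and an E box (CACGTG, its own reverse complement) was in 1 of the 7, of Dhcr7, against 7.15% of all. These matches describe letters in a window and not bound sites.

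The arrays themselves set the frame for every value below. The muscle genes Acta1 and Ckm stood at 13.70 to 13.99 in the Nf1Prx1 arrays and at 13.91 to 14.01 in the control arrays. Nf1 had 8.81, 8.63, 8.73 and 8.72 in Nf1Prx1 1 to 4, against 8.82, 8.92, 8.98 and 8.69 in control 1 to 4, with a two-sided exact permutation p of 0.171, so its cluster level did not separate the labels. In the authors' deposited table of single probe sets, described below, the 58 of Nf1 had log2 differences from -1.99 to 1.33, with a median of 0.03. Of these 58, 1 passed after adjustment (adjusted p = 0.0147), against 0.12% of all probe sets. Ucp1, the uncoupling protein of brown fat, had 9.75 in Nf1Prx1 1 and 10.18 in control 1, against 6.05 to 6.18 in Nf1Prx1 2 to 4 and 6.01 to 6.24 in control 2 to 4. The summed level of 8 neutrophil markers was 12.95 in Nf1Prx1 1 and 12.51 in control 1, against 9.80 to 10.34 in Nf1Prx1 2 to 4 and 9.70 to 9.92 in control 2 to 4. The arrays numbered 1 therefore stand apart from the other 6, and several results below are also given without them. Xist, transcribed from the inactive X chromosome, was at 10.94 and 11.35 in Nf1Prx1 3 and 4 and at 5.52 and 5.86 in Nf1Prx1 1 and 2, against 10.54 and 10.85 in control 2 and 4 and 5.52 and 5.55 in control 1 and 3.

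None of the 8 enzymes passed between the groups in the fit across all genes (limma without a block, threshold 0.05 after Benjamini-Hochberg adjustment). That fit called 0.0% of the 19938 genes, and 13.6% of them had an unadjusted p under 0.05, as did 2 of the 8 enzymes, Fdps and Dhcr7. A paired fit, with the replicate number of the sample titles as a block, called 8.36% of all genes and again none of the 8 enzymes, whose smallest adjusted p was 0.0823, for Fdps. The differences of the 8, Nf1Prx1 minus control, ran from -0.31 to 0.06 on the log2 scale with a median of -0.14, beside a median of -0.04 over all genes. Without the arrays numbered 1 the median of the 8 was also -0.14. Hmgcs1, Idi1, Lss and Cyp51 then differed by -0.24, -0.11, 0.003 and 0.02. By direction, 3 of the 8 differences were above 0 and 5 below.

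**Figure D1:**
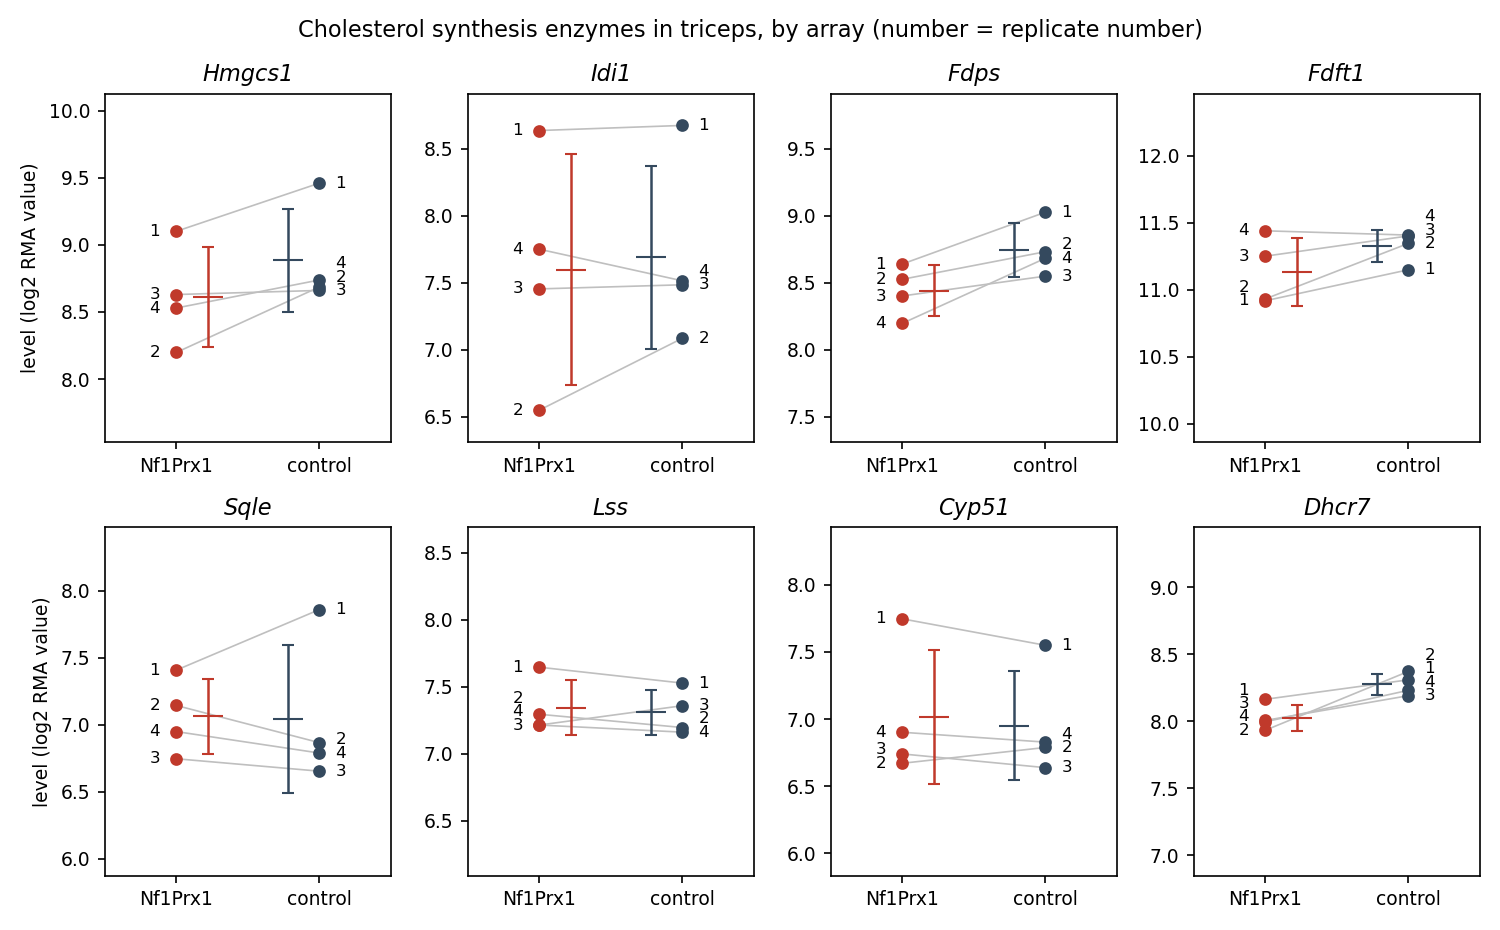
Log2 RMA level (y axis) of each of the 8 enzymes in the 4 Nf1Prx1 arrays (left, red) and the 4 control arrays (right, blue), with arrays of the same replicate number joined by a grey line; the offset bars are the group mean ± SD (n = 4 each), and every y axis spans the same length. Dhcr7 is the gene whose groups do not overlap, and the points numbered 1 are the highest of each group for Hmgcs1, Idi1, Fdps, Sqle, Lss and Cyp51.

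At the entrance of the pathway, Hmgcs1, the cytosolic HMG-CoA synthase that condenses acetyl-CoA and acetoacetyl-CoA, had levels of 9.10, 8.20, 8.63 and 8.53 in Nf1Prx1 1 to 4, against 9.46, 8.69, 8.66 and 8.74 in control 1 to 4. The arrays numbered 1 were highest in both groups, the groups overlapped, and Nf1Prx1 was below control in 4 of 4 same-numbered pairs. Being below in all 4 pairs was also true of 21.3% of all genes. Hmgcs1 averaged 8.61 ± 0.37 in Nf1Prx1 and 8.89 ± 0.38 in control (SD, n = 4 each), a difference of -0.27 with a 95% interval of -0.79 to 0.25 (limma adjusted p = 0.666, and 0.136 in the paired fit).

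Idi1, the isopentenyl diphosphate isomerase that makes the allylic starter unit of isoprenoids, was the most variable of the 8. Its levels were 8.64, 6.55, 7.45 and 7.75 in Nf1Prx1 1 to 4, against 8.67, 7.09, 7.49 and 7.52 in control 1 to 4. Both arrays numbered 1 were highest and both numbered 2 were lowest, so that levels followed the replicate number more than the genotype. The whole range over 8 arrays was 2.12 on the log2 scale, against a group difference of -0.09 with a 95% interval of -1.12 to 0.93 (limma adjusted p = 0.959). That interval leaves room for a change of more than 1 log2 unit in the lower direction and nearly as much in the other. The other Idi1 cluster gave a difference of -0.12 and the same order of the arrays at the ends, 8.40 in Nf1Prx1 1 and 8.86 in control 1 at the top and 6.53 in Nf1Prx1 2 and 7.02 in control 2 at the bottom. Which locus each cluster covers is not given in the sources used here, so a near-identical copy may share its signal.

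Fdps, the farnesyl diphosphate synthase whose product feeds both sterols and protein prenylation, had levels of 8.64, 8.53, 8.40 and 8.20 in Nf1Prx1 1 to 4, against 9.03, 8.73, 8.55 and 8.68 in control 1 to 4. Every pair had the Nf1Prx1 array lower, by 0.15 to 0.49, while Nf1Prx1 1 lay above control 3, so the groups overlapped. The means were 8.44 ± 0.19 in Nf1Prx1 and 8.75 ± 0.20 in control (SD, n = 4 each), and the difference of -0.31 (1.24-fold lower) had a 95% interval of -0.61 to -0.005. It was the largest of the 8 in size, and its unadjusted p of 0.0470 became 0.361 after adjustment over all genes in limma, and 0.0823 in the paired fit. Without the arrays numbered 1 the difference was -0.28.

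Fdft1, squalene synthase, commits farnesyl diphosphate to sterols. Its levels were 10.92, 10.93, 11.25 and 11.44 in Nf1Prx1 1 to 4, against 11.15, 11.34, 11.40 and 11.41 in control 1 to 4. The arrays numbered 1 were here the lowest of their groups, the reverse of their place for most of the other enzymes, and Nf1Prx1 4 was the highest of all 8. The difference was -0.19 with a 95% interval of -0.50 to 0.11 (limma adjusted p = 0.593), and the other Fdft1 cluster gave -0.13. In that other cluster Nf1Prx1 2 (10.69) was below Nf1Prx1 1 (10.75), while control 1 (10.79) was again the lowest control. As for Idi1, which locus each cluster covers is not given, so a near-identical copy may share the Fdft1 signal.

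Sqle, squalene epoxidase, a rate-limiting step of the sterol part of the pathway, had levels of 7.41, 7.14, 6.75 and 6.95 in Nf1Prx1 1 to 4, against 7.86, 6.87, 6.65 and 6.79 in control 1 to 4. Nf1Prx1 was 0.45 below control in the pair numbered 1 and 0.09 to 0.28 above it in the other 3 pairs. The mean difference was 0.02 with a 95% interval of -0.57 to 0.61 (limma adjusted p = 0.985), and 0.18 without the arrays numbered 1 (adjusted p = 0.550).

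Lss, lanosterol synthase, which folds squalene epoxide into the first sterol, had 7.65, 7.30, 7.22 and 7.22 in Nf1Prx1 1 to 4, against 7.53, 7.20, 7.36 and 7.16 in control 1 to 4. Apart from the arrays numbered 1, the 6 levels lay within 0.20 of each other. The difference was 0.03 with a 95% interval of -0.26 to 0.32 (limma adjusted p = 0.948).

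Cyp51, the lanosterol 14-alpha-demethylase, had 7.75, 6.67, 6.74 and 6.90 in Nf1Prx1 1 to 4, against 7.55, 6.79, 6.64 and 6.83 in control 1 to 4. The arrays numbered 1 stood 0.89 above the mean of the other 6, which spanned 0.26 between them. The group difference was 0.06 with a 95% interval of -0.55 to 0.68 (limma adjusted p = 0.950).

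Dhcr7, the 7-dehydrocholesterol reductase that completes cholesterol, had 8.16, 7.93, 8.01 and 8.00 in Nf1Prx1 1 to 4, against 8.31, 8.37, 8.19 and 8.23 in control 1 to 4. All 4 Nf1Prx1 arrays were below all 4 control arrays, as were those of 6.04% of all genes. It was the least variable of the 8 within groups, with 8.02 ± 0.10 in Nf1Prx1 and 8.27 ± 0.08 in control (SD, n = 4 each). The difference of -0.25 (1.19-fold lower) had a 95% interval of -0.45 to -0.05 and an unadjusted p of 0.0195. That did not hold after adjustment over all genes, at 0.265 in limma and 0.120 in the paired fit, and 9.04% of all genes were lower in Nf1Prx1 at an unadjusted p under 0.05.

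Array weights, which limma estimates from how far each array lies from its group over all genes, were the one setting under which enzymes passed. With them Fdps fell (adjusted p = 0.0195) and Dhcr7 fell (adjusted p = 0.0250), in a fit that called 3070 genes. None of the 8 passed under the other 18 alternatives.

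Across arrays, most of the 8 enzymes stood apart in the pair numbered 1. Both arrays numbered 1 were the 2 highest of the 8 arrays for 5 of the 8 enzymes (62.5%), namely Hmgcs1, Idi1, Sqle, Lss and Cyp51, against 11.8% of all genes. The mean of those 2 arrays was above the mean of the other 6 by 1.35 for Idi1, 0.89 for Cyp51, 0.77 for Sqle, 0.71 for Hmgcs1 and 0.35 for Lss. For Fdps and Dhcr7 the same quantity was 0.32 and 0.12, and for Fdft1 it was -0.26. These arrays are also the ones with brown fat and neutrophil transcripts. They were the highest of their groups in the summed adipocyte markers as well, with 15.63 in Nf1Prx1 1 against 13.55 to 14.38 in Nf1Prx1 2 to 4, and 14.41 in control 1 against 12.12 to 12.31 in control 2 to 4. Macrophage markers stood at 12.79 in Nf1Prx1 1 against 12.19 to 12.63 in Nf1Prx1 2 to 4, and at 12.72 in control 1 against 11.43 to 11.85 in control 2 to 4. The part of these cells in the enzyme levels was not tested, and since the arrays were singled out from the data no test of them was made.

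**Figure D2:**
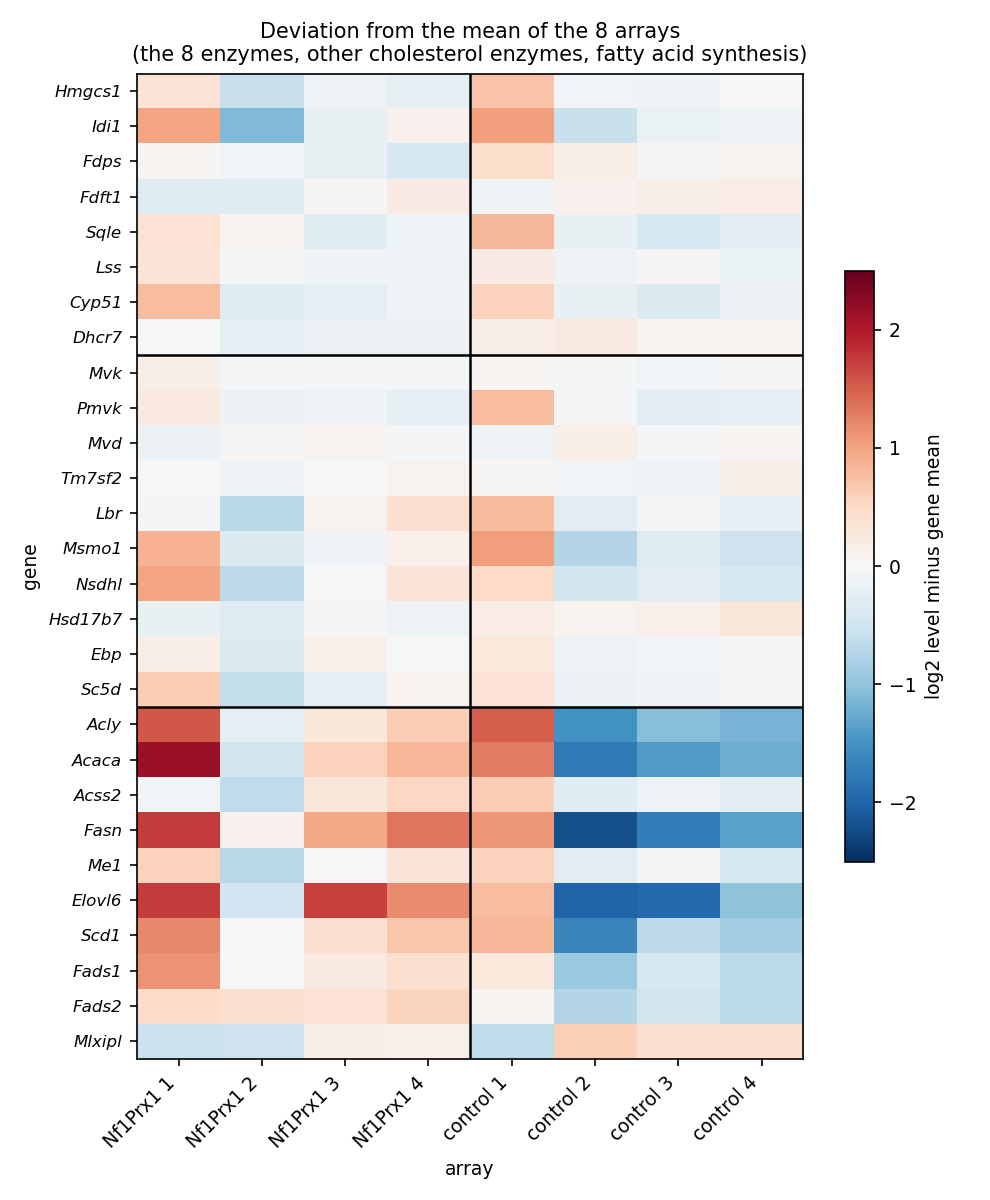
Log2 level minus the gene's mean over 8 arrays (colour scale) for the 8 enzymes (top block), the other cholesterol enzymes (middle) and fatty acid synthesis genes (bottom), with the Nf1Prx1 arrays left of the vertical line and the control arrays right of it. The columns of Nf1Prx1 1 and control 1 are red for most cholesterol genes and for most fatty acid genes. In the fatty acid block control 2 to 4 are also blue and Nf1Prx1 3 and 4 are also red for most genes.

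The mean of the 8 enzymes, each centred on its own mean, was 0.32, -0.31, -0.16 and -0.09 in Nf1Prx1 1 to 4, against 0.48, -0.08, -0.10 and -0.05 in control 1 to 4. In each pair the Nf1Prx1 array was below its control, and the arrays numbered 1 exceeded all others. As a description over 8 arrays that share normalization and tissue admixture, Hmgcs1 followed the mean of the other 7 enzymes most closely (Pearson r = 0.96, and 0.87 over the 6 arrays without number 1). Cyp51 (r = 0.88) and Idi1 (r = 0.86) came next, at 0.43 and 0.35 over 6 arrays. Fdft1 stood at -0.36 over 8 arrays and 0.94 over 6, and Sqle at 0.71 over 8 and -0.79 over 6. Lss stood at 0.75 over 8 and -0.51 over 6, and Fdps at 0.60 over 8 and -0.09 over 6. For Fdft1, Sqle, Lss and Fdps the sign thus turned with the arrays numbered 1. Dhcr7 stood at 0.50 over 8 and 0.55 over 6.

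Outside the pathway lists, the gene whose pattern over the 8 arrays was most like this mean was Osgin2 (r = 0.99, and 0.95 over 6 arrays). Its levels were 8.23, 6.80, 7.21 and 7.21 in Nf1Prx1 1 to 4, against 8.37, 7.21, 7.25 and 7.30 in control 1 to 4. Snora52, Haus7, Tmem128, Mblac2, Chchd1, Rala and Lox followed at 0.98 to 0.99, and over 6 arrays these 7 ran from 0.84 to 0.99. The most opposite pattern was that of Slc41a1 (r = -0.98 over 8 and over 6 arrays), followed by Syvn1, Urad and Prr29 at -0.96. All of these genes were picked by this correlation from all genes outside the lists, so high values follow from the choice. The 6 arrays are part of the 8 and give no separate check.

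The other enzymes between acetyl-CoA and cholesterol gave a like picture. Of the 10 measured here, 4 had differences above 0 and 6 below, with a median of -0.02. Hsd17b7, the 3-keto sterol reductase, was the one that passed in the paired fit, in which 3.36% of all genes were called higher and 5.0% lower, and none passed without a block. Its levels were 8.21, 8.06, 8.34 and 8.26 in Nf1Prx1 1 to 4, against 8.57, 8.49, 8.52 and 8.69 in control 1 to 4. The groups did not overlap, as for 6.04% of all genes in this lower direction. It fell by 0.35 (limma adjusted p = 0.175, and 0.0473 in the paired fit), and 0.0126 with array weights. In the paired fit it missed the threshold without any 1 of the 4 numbers, at 0.0932 to 0.164. The other 3 named by their p did not pass in either fit. Nsdhl, a sterol C4 decarboxylase, differed by 0.34 (95% interval -0.43 to 1.11), and passed with array weights (adjusted p = 0.0435) and in the paired fit without number 2 (0.0439). Msmo1, the sterol C4-methyl oxidase, differed by 0.27 (95% interval -0.63 to 1.17). Pmvk, phosphomevalonate kinase, differed by -0.11, and by 0.03 without the arrays numbered 1.

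**Figure D3:**
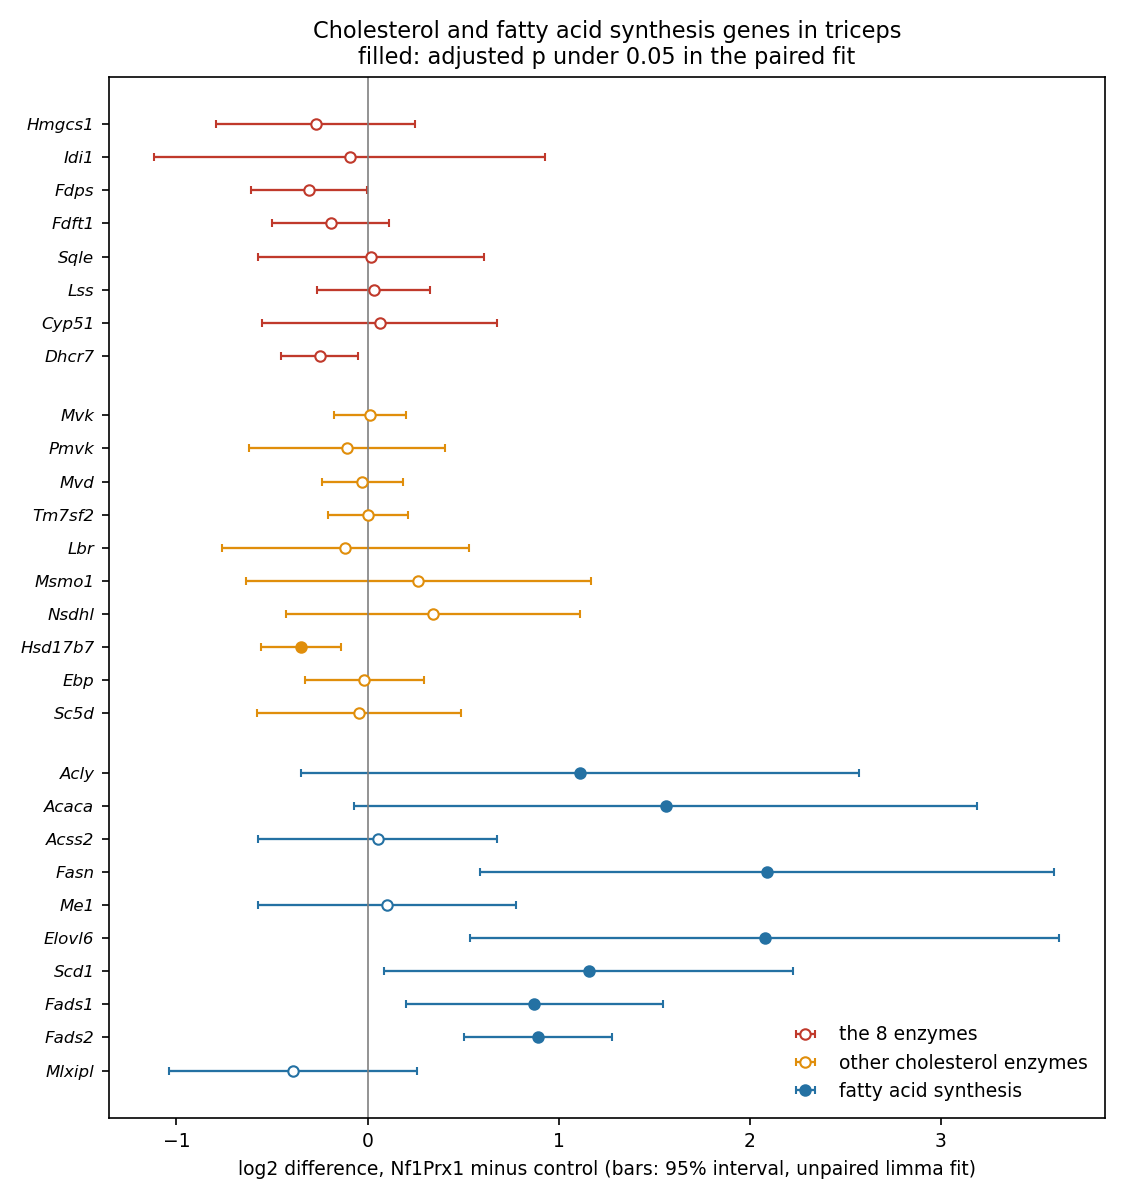
Log2 difference, Nf1Prx1 minus control (x axis), with its 95% interval from limma without a block, for the 8 enzymes (red), the other cholesterol enzymes (orange) and fatty acid synthesis genes (blue); filled circles passed in the paired fit. The 8 enzymes lie between -0.31 and 0.06 and are all open, Hsd17b7 is filled at -0.35, and 7 of 10 fatty acid genes are filled at 0.87 to 2.09.

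Among 7 measured genes that control SREBP (median difference 0.09), 3 passed in the paired fit, which called 8.36% of all genes. None passed in the fit without a block. Of these 3, the paired fit without numbers 1, 2, 3 and 4 kept 2, 1, 0 and 0. Insig1, an endoplasmic reticulum anchor of the SREBP escort and itself an SREBP target, had 11.25, 9.99, 9.91 and 10.03 in Nf1Prx1 1 to 4, against 10.86, 8.79, 9.52 and 9.09 in control 1 to 4. It was higher in Nf1Prx1 in 4 of 4 pairs, as were 11.8% of all genes, and rose by 0.73 (paired adjusted p = 0.0320, and 0.536 without a block). Insig2, the other anchor, was lower in every Nf1Prx1 array, with 9.76, 9.42, 10.04 and 9.73, against 10.43, 10.24, 10.22 and 10.19 in the controls. It fell by 0.53 (paired adjusted p = 0.0371, and 0.163 without a block; 0.102 in the paired fit without the arrays numbered 1). Rnf139, a ubiquitin ligase of the same membrane, fell by 0.68, also with groups that did not overlap (paired adjusted p = 0.0257, and 0.152 without a block). Groups apart in this lower direction were found for 6.04% of all genes. Mbtps1, the protease that makes the first cut in SREBP, differed by 0.14 and did not pass.

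The isoprenoid branch, which uses the products of Fdps, was below 0 in 12 of 12 measured genes, as were 58.3% of all genes, with a median of -0.21, beside -0.04 for all genes. Coq2, which joins the prenyl tail to the ubiquinone ring, passed in the paired fit, with 9.43, 9.51, 10.04 and 9.76 in Nf1Prx1 1 to 4, against 10.01, 10.25, 10.29 and 10.32 in control 1 to 4. It fell by 0.53 (paired adjusted p = 0.0246, and 0.181 without a block). Pdss2, a subunit of the enzyme that makes that tail, fell by 0.44 (paired adjusted p = 0.0234, and 0.393 without a block). Both missed the threshold in the paired fit without the arrays numbered 1, at 0.0683 for Coq2 and 0.0669 for Pdss2. Fntb, a farnesyltransferase subunit, and Rabggtb, a subunit of the enzyme that prenylates Rab proteins, differed by -0.33 and -0.27 and did not pass. Summed over the 8 muscle fibre markers, levels were 16.23 to 16.55 in Nf1Prx1 and 16.53 to 16.55 in control, and all 8 differences were below 0 (median -0.11, none passing in either fit). Their part in the isoprenoid values was not tested.

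Genes that move sterols out of cells or between lipoproteins were higher where they passed. Of 9 measured (median 0.23), 3 passed in the paired fit, beside 3.36% of all genes called higher in that fit. Abca1, which exports cholesterol to apolipoproteins, had 10.36, 9.28, 9.55 and 9.79 in Nf1Prx1 1 to 4, against 9.08, 8.50, 9.14 and 8.93 in control 1 to 4. The Nf1Prx1 arrays were all above the controls, as for 2.58% of all genes, and it rose by 0.83 (paired adjusted p = 0.0184, and 0.181 without a block). Apoe, an apolipoprotein made by macrophages and fat among other cells, rose by 0.91 (paired adjusted p = 0.0160, and 0.284 without a block). Lcat, which esterifies plasma cholesterol, rose by 0.40 (paired adjusted p = 0.0295, and 0.358 without a block), and its paired adjusted p was 0.0598 without the arrays numbered 1. Abcg1, another exporter, differed by 0.22 and did not pass. All 8 macrophage markers were higher, 4 of them passing in the paired fit, with summed levels of 12.19 to 12.79 in Nf1Prx1 and 11.43 to 12.72 in control. All 7 fibroblast markers were higher as well, 5 of them passing, with summed levels of 13.91 to 14.48 in Nf1Prx1 and 13.36 to 14.37 in control. Without the arrays numbered 1 the fibroblast sums were 13.91 to 14.45 in Nf1Prx1 and 13.36 to 13.75 in control. The adipocyte markers, described with the fatty acid genes below, were higher in 8 of 8, all passing in the paired fit (median 1.68). The part of these cells in the efflux genes was not tested.

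Of 7 measured genes for LDL uptake and sterol traffic (median -0.11), Stard5, a sterol carrier, was the one that passed in the paired fit, and none passed without a block. It rose by 0.42 with groups that did not overlap, as for 2.58% of all genes in this direction. Its paired adjusted p was 0.0425, and 0.104 without the arrays numbered 1. Without a block its adjusted p was 0.181. Npc2, which hands cholesterol out of lysosomes, Osbp, an oxysterol-binding carrier, and Mylip, a ligase for the LDL receptor, differed by 0.45, -0.28 and -0.14 and did not pass in either fit. Npc2 passed with array weights (adjusted p = 0.0347) and in the paired fit without number 2 (0.0325).

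Of 10 measured fatty acid synthesis genes 9 were higher, with a median of 1.00 beside -0.14 for the 8 cholesterol enzymes, a contrast between lists that was not tested. Acss2 and Me1, at 0.05 and 0.10, were within the size range of the enzymes. Acss2 differed by 0.30 without the arrays numbered 1, and it was called with array weights. In all, 7 passed in the paired fit, all of them higher, against 3.36% of all genes called higher: Acly, Acaca, Fasn, Elovl6, Scd1, Fads1 and Fads2. Fasn, fatty acid synthase, had 12.97, 11.33, 12.18 and 12.56 in Nf1Prx1 1 to 4, against 12.31, 9.02, 9.49 and 9.87 in control 1 to 4. Control 1 lay above Nf1Prx1 2 and 3, so the groups overlapped, but Nf1Prx1 was higher in 4 of 4 pairs, as for 11.8% of all genes. Fasn rose by 2.09 (4.25-fold; paired adjusted p = 0.0158, and 0.224 without a block), and Elovl6, a fatty acid elongase, by 2.08 (paired adjusted p = 0.0228, and 0.235 without a block). Scd1, a fatty acid desaturase, rose by 1.16 (paired adjusted p = 0.0203), and the remaining 4 rose by 0.87 to 1.56. In the paired fit without numbers 1, 2, 3 and 4, the 7 genes gave 7, 6, 2 and 0 calls, with Elovl6 and Fads1 the 2 left without number 3. Over the 6 pathway lists beside the 8 enzymes, 17 genes passed in the paired fit, and 11, 11, 3 and 0 of these 17 passed without numbers 1, 2, 3 and 4. All 8 measured adipocyte markers rose in the paired fit (median 1.68), with summed levels of 13.55 to 15.63 in Nf1Prx1 and 12.12 to 14.41 in control. Without the arrays numbered 1 these ranges were 13.55 to 14.38 in Nf1Prx1 and 12.12 to 12.31 in control. The part of fat cells in the fatty acid genes was not tested.

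The remaining marker lists had few or no calls. None of 5 brown adipocyte, 6 Schwann, 8 neutrophil and 6 epidermis markers passed in either fit, with median differences of 0.15, 0.14, 0.28 and 0.04. Of 6 sebaceous and hair markers (median -0.05), Mc5r fell in the paired fit.

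Below the gene level, the authors' deposited table gives group means for single probe sets, the smaller units of which a cluster is made. Judged by the spread and the T values in it, the table rests on 5 arrays per group, while the notes beside it speak of 4, and a link between its arrays and the 8 above could not be made. In the authors' deposited table the 8 enzymes have 94 probe sets, of which 59 were higher and 35 lower in Nf1Prx1, with a median log2 difference of 0.10. None of the 94 passed after adjustment over the 234873 probe sets in the authors' deposited table, of which 0.12% passed. At an unadjusted p under 0.05 there were 9 of 94 (9.57%) in the authors' deposited table, against 14.7% of all its probe sets. Of these, 5 of 94 were lower, against 7.42% of all, and 4 of 94 were higher, against 7.23% of all.

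**Figure D4:**
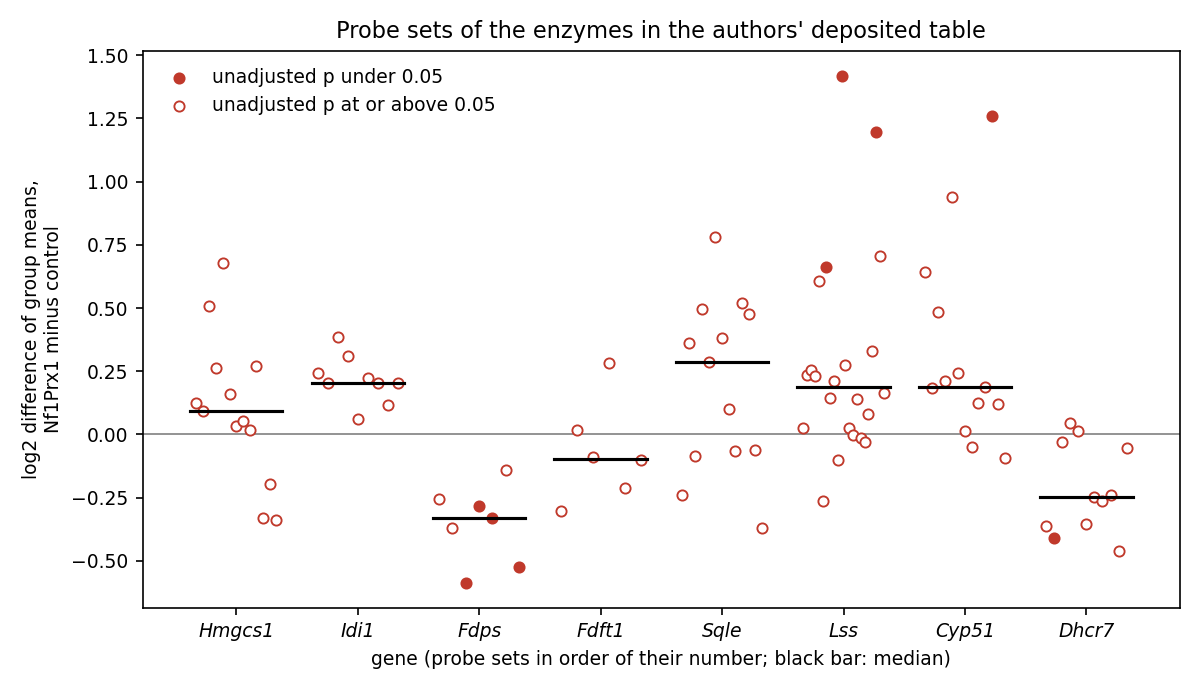
Log2 difference of the group means, Nf1Prx1 minus control (y axis), for each probe set of the 8 enzymes in the authors' deposited table, in order of probe set number within each gene; the black bar is the gene's median, and filled circles have an unadjusted p under 0.05. All 7 Fdps probe sets lie below 0 and all 9 Idi1 probe sets above it, and none of the 94 passed after adjustment.

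Fdps was the most uniform of the lower genes: in the authors' deposited table all 7 of its probe sets were lower, by 0.14 to 0.59, and 4 had an unadjusted p under 0.05. Its brightest probe set had means of 10.9 in Nf1Prx1 and 11.2 in control in the authors' deposited table (unadjusted p = 0.0131, adjusted p = 0.219). Dhcr7 was lower in 9 of 11 probe sets of the authors' deposited table (median -0.25), 1 of them with an unadjusted p under 0.05. Both genes thus had the same direction at the probe set level as on the 8 arrays, on animals that may be the same ones.

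For 6 of the 8 enzymes the median in the authors' deposited table had the sign of the difference on the 8 arrays, and for Idi1 and Hmgcs1 it did not. Idi1 was higher in 9 of 9 probe sets of the authors' deposited table (median 0.21), against -0.09 on the arrays. Hmgcs1 was higher in 10 of 13 probe sets of the authors' deposited table (median 0.09), against -0.27 on the arrays. None of these 22 probe sets had an unadjusted p under 0.05.

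Lss and Cyp51 held the widest spread within a gene. In the authors' deposited table, Lss was higher in 17 of 22 probe sets, with differences from -0.26 to 1.42 and a median of 0.19. The 3 Lss probe sets with an unadjusted p under 0.05 were all higher, and the one with the largest difference had means of 6.7 in Nf1Prx1 and 5.2 in control in the authors' deposited table (adjusted p = 0.317). Cyp51 was higher in 11 of 13 probe sets of the authors' deposited table (median 0.19), 1 of them with an unadjusted p under 0.05, at 1.26 (means of 6.3 in Nf1Prx1 and 5.0 in control). Sqle was higher in 8 of 13 (median 0.29) and Fdft1 in 2 of 6 (median -0.10) in the authors' deposited table. Probe sets were taken by gene symbol, so those of Idi1 and Fdft1 are not split by cluster.

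Fatty acid synthesis genes had 195 probe sets in the authors' deposited table, with a median of 1.11, and 48.2% of them had an unadjusted p under 0.05.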

How the data were processed

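RNA of 8 triceps (4 Nf1Prx1, 4 control) was measured on 1 array per animal, grouped by the sample titles. The authors deposited log2 values per transcript cluster, made by RMA with the Affymetrix Expression Console per the submitters' processing notes; versions are not given in the sources used here. Quantile normalization in RMA is made to give arrays 1 distribution, so a shift of all genes may not be seen. The array medians of the deposited cluster values still ran from 7.23 in control 1 to 7.39 in Nf1Prx1 2. The authors also deposited a probe set table with, per the file headers, group means, SD, minima and maxima of log2 intensity, an unadjusted p-value, a ratio of control over mutant (turned round here), a fold change, and F and T scores. Recomputed from F, these p-values needed 8 residual degrees of freedom (gap at most 5.89e-06, against 0.0125 with 6), which is 5 arrays per group against the 4 stated. Arrays have no read depth, and precision is limited by their number.

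The platform annotation gave 1 symbol to 21789 of 35556 clusters, several to 1621 and none to 12146; symbols were updated through the Entrez ID for 21698. For 999 genes with several clusters the highest mean stood for the gene. Groups were compared with limma 3.58.1 (R 4.3.3; lmFit, eBayes, two-sided) over 19938 genes with no filter on dim genes, and p-values were adjusted by Benjamini-Hochberg. Tables were read with pandas 2.3.3 and scipy 1.17.1, and figures drawn with matplotlib 3.10.9. The fits were tested on simulated data.

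The titles number the arrays 1 to 4 in each group. Deviations from the group means correlated at 0.71, 0.57, 0.39 and 0.30 for the same numbers and at -0.53 to 0.30 for different ones. All same-numbered pairs exceeded 0.1, and the numbers are therefore treated as pairs. The pairing comes from these data and not from a stated design, it is least distinct for numbers 3 and 4, and Xist differs within the pairs numbered 2 and 3, so paired adjusted p-values may be too small.

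The members and all gene lists (6 other pathway lists and 9 marker lists) were chosen with earlier results of these data known, and so was the rule for named genes: all 8 members, from each other pathway list the 4 genes with the smallest p and any that pass, the 8 most and 4 least like the members' mean over the arrays, and marker lists by count. Promoter sequences and their coordinates are RefSeq's, on GRCm38.p6; the build of the arrays' annotation is not given in the sources used here, so no other coordinates are printed. Alternatives were the replicate block, each array or number left out, quantile normalization, a filter on dim genes (mean under 6), mean over clusters, array weights and eBayes with trend and robust. Leaving out the arrays numbered 1 without a block was added after seeing the data. Some genes of the pathway are not reported here.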

Additional observations from a re-analysis of the deposited data

Results flagged for a closer look

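In groups of 4 arrays, 6 of 70 tested sets (35 named genes in 2 groups) had a highest or lowest array far from the other 3, by a gap over the whole range above Dixon's 95% critical value; chance alone flags about 1 in 20 groups. Among the 8 enzymes this was 1 of 16 sets, Hmgcs1 in control 1 at 9.46, with the other controls at 8.66 to 8.74.

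Of the other named genes, Insig1 in Nf1Prx1 1 stood at 11.25, above the other Nf1Prx1 arrays. Apoe in control 1 (11.44) and Acly in control 1 (10.78) stood above the other controls. Mbtps1 in control 2 (8.96) stood below the other controls and Mylip in control 3 (9.66) above them. Of the 6, 1 was in Nf1Prx1 1 and 3 in control 1, the arrays that also hold brown fat and neutrophil transcripts, whose part in these levels was not tested.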

How the results depend on the processing

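The count of genes called was 0 without a block, with 2709 at an unadjusted p under 0.05, and moved most with the setting. It was 3070 with array weights, 5 after quantile normalization and 1667 with the replicate block. Leaving out single arrays gave 0 to 3 (3 without Nf1Prx1 3). With the replicate block it was 719, 1202, 206 and 50 without numbers 1, 2, 3 and 4, and without number 1 and with no block it was 96 (added after seeing the data). The count of enzymes called was 0 of 8 under all settings except array weights, which gave 2, Fdps and Dhcr7. At an unadjusted p the probe sets of the enzymes in the authors' deposited table that passed were 9, against 0 after adjustment, also with dim probe sets left out.

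The median of the 8 enzymes ran from -0.24 to 0.01 over single arrays left out. Of 665 values of 35 named genes under 19 alternatives, 645 kept their direction, and 68 passed under an alternative. Hmgcs1, Fdps, Fdft1 and Dhcr7 were below 0 under all 19. For the 20 that turned, the cause was not tested. Over single arrays left out, Idi1 ran from -0.44 to 0.26, Sqle from -0.11 to 0.29, Lss from -0.0696 to 0.104 and Cyp51 from -0.18 to 0.26. Idi1 was 0.15 with array weights and 0.0556 in the paired fit without number 2. Sqle was -0.0664, -0.00484 and -0.0273 in the paired fit without numbers 2, 3 and 4. Pmvk ran from -0.216 to 0.130 over single arrays left out (0.130 without control 1) and was 0.0289 without number 1, with and without the block. The replicate block changed no call of the 8 enzymes. The number of arrays, 4 a group, limits which differences can be told from the spread.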
